A study of Homo sapiens with 8 samples.

Results

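The regions described here are eCLIP peaks of the splicing regulator RBFOX2 that lay in the first kilobase of protein-coding genes in HEK293T cells, a line derived from human embryonic kidney. A peak was counted when it was on chromosomes 1 to 22, its midpoint fell in exactly 1 RefSeq gene span on GRCh38, that span was protein-coding and 20 to 500 kb long, and the midpoint was within 1000 nt of the span's 5′ end as read on the strand of the peak. The rule reads positions only, and no fold or p-value. The rule took 7618, 7518, 7522 and 7549 peaks in replicates 1 to 4, which together made 30207 of 1118316 called peaks (2.7%). They lay in 5125 of the 10297 genes that met the rule, and 2653 genes had such a peak in all 4 replicates. The study consists of 4 RBFOX2 immunoprecipitations (IP) and 4 paired inputs, each input being 2% of the sample. Each used 10000000 HEK293T cells irradiated with 400 mJ/cm2 at 254 nm, and the labels name no other treatment. Nothing in the labels says whether replicates were separate cultures, so the tests measure only the spread between these 4 IP and input pairs, which may be technical. Each called peak carries a log2 fold of IP over its paired input and a −log10 p. No separate values for the inputs were used.

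RBFOX2 is an RNA-binding protein that recognises GCAUG, mostly in introns, and controls whether nearby exons are spliced in. In eCLIP, proteins are crosslinked to RNA by ultraviolet light, the protein is immunoprecipitated with its RNA, and a size-matched input shows which positions are rich in reads without selection. The start of a protein-coding gene gives the first exon, the 5′ untranslated region and the start of the first intron of the pre-mRNA, next to the promoter where transcription begins. The gene table used here gives spans without exons, so exon and intron were not told apart.

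The spans carry no strand, so the reading of the 5′ end from the peak was compared with a RefSeq table of transcript starts, which is the same annotation source. Of members in genes with a strand in that table, 24991 were on the strand of the gene and 150 on the other (99.4% sense), while 5066 lay in genes whose strand was not in the tables used here. Of the sense members, 23221 were in genes whose span end was itself a listed RefSeq transcript start. These held 132 of the enriched sense peaks, and the other 1770 sense members held 0. Of all members, 351 overlapped the 5′ end of the span. In the last 50 nt inside the limit, 905 peaks had a mean log2 fold of 0.34 and 15 were enriched. In the 50 nt just outside it, 846 peaks had a mean of 0.20 and 10 were enriched.

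The sequences below open genes whose first kilobase held a region enriched in every replicate, or, for NRDE2, the region with the steadiest depletion. Each is the first 30 nt of the span in the RefSeq table on GRCh38, read 5′ to 3′ on the strand of the gene. They are shown because they are the transcript starts from which the distances in the results are counted.
DGCR8, chr22:20080241-20080270, plus strand: ctccgctcgcccggcgcggcaggcgggtgc
ADI1, chr2:3519502-3519531, minus strand: gagcgcggcccctgggttcgaacacggcac
ERI3, chr1:44355250-44355279, minus strand: cggggtcagagtgcgcggaggtgagtcggt
ANKRD17, chr4:73258769-73258798, minus strand: agtagaggtgaccgaggcggtggcggcgga
HIVEP2, chr6:142945704-142945733, minus strand: gttccccgcaggagggtctccgcacaaaca
NRDE2, chr14:90331912-90331941, minus strand: atccctatagagaagaacggaggtacggcc
The first 5 were 86.7%, 73.3%, 70.0%, 70.0% and 63.3% G or C, and NRDE2 was 53.3%. The other genes named below for a depleted region, PANK3, EBPL, TSG101 and COL25A1, were 83.3%, 56.7%, 53.3% and 63.3%. Genes named for an enriched or higher region ran from 33.3% in TRERF1 to 86.7% in DGCR8, so the sets overlapped. None of the 6 genes shown above had GCATG within 50 nt of its start, while 3 of the 18 named genes with a start sequence did: SERGEF, EBPL and TFG. That of TFG, whose region is described with the other higher ones, has it in the first 30 nt, in capitals here.
TFG, chr3:100709290-100709319, plus strand: tggtcacgccccgcGCATGcgtgcatcggg

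Stretches of 30 nt around GCATG were also read from RefSeq start windows where a peak in the first kilobase covered the motif in all 4 replicates. GCATG, the DNA form of the RBFOX motif, is in capitals.
EZH2, chr7:148883634-148883663, minus strand: gggaagggGCATGacacccgggcccgccgg
DET1, chr15:88546456-88546485, minus strand: aggctcctccctGCATGacgctgatgccca
GLRX3, chr10:130136413-130136442, plus strand: gcggcaGCATGgcggcgggggcggctgagg
The EZH2 peak, at the gene of the catalytic subunit of Polycomb repressive complex 2, had log2 folds of 1.70, 1.91, 0.36 and 1.11 in replicates 1 to 4. DET1, a ubiquitin ligase component, had 1.58, −1.0, 0.0 and 0.0. GLRX3, a glutaredoxin of iron-sulfur cluster metabolism, had −1.0, −1.0, 2.0 and −1.81. All 4 values were above 0 for EZH2 only, and none of these peaks was enriched.

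Called peaks crowded towards the gene start. Genome stretches covered by exactly 1 qualifying span held 459, 453, 453 and 455 peaks per Mb in the first kilobase (455 ± 2.79, SD, n = 4, both strands counted). The second kilobase held 216 ± 6.35, the third 167 ± 4.54 and the tenth 130 ± 5.40 per Mb. The first exceeded the second in every replicate, by 1.08 ± 0.0517 on the log2 scale. The exact two-sided sign-flip test over 4 replicates gave p = 0.13, the smallest it can give. The same p was found for each of 5 main comparisons of this kind and stayed 0.13 after Benjamini-Hochberg adjustment over them, so none can pass 0.05 and each is described by its size and by how many replicates share its direction. Within the kilobase the number of peaks fell from 1386.5 ± 13.5 per replicate in the first 100 nt to 461.5 ± 25.3 in the last.

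Called peaks at the start itself averaged below the input, and those further in averaged above it. In the first 100 nt the mean log2 fold was −0.135 ± 0.076 (SD, n = 4), and in the last 100 nt of the kilobase it was 0.292 ± 0.062. In steps of 200 nt the mean was −0.123, 0.040, 0.198, 0.274 and 0.280, so most of the rise lay in the first 600 nt. Peaks with a log2 fold below −0.5 made up 34.9%, 30.8%, 25.3%, 23.5% and 23.1% of the peaks in these steps. The peaks also became shorter, from a median of 61.5 nt in the first step to 49.0 nt in the last. Whether length has a part in the fold was not tested.

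**Figure D1:**
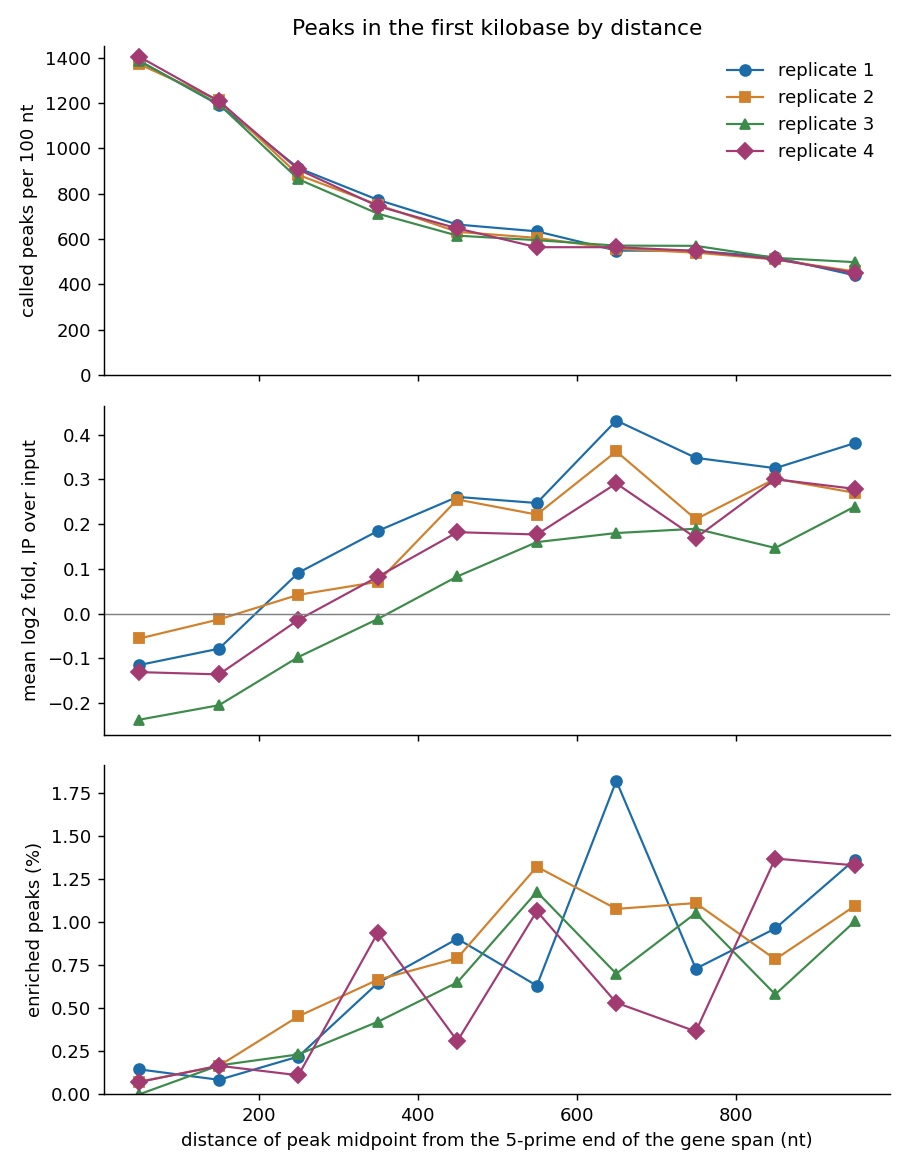
Called peaks per 100 nt (top), their mean log2 fold of IP over input (middle) and the percentage enriched (bottom) against distance of the peak midpoint from the 5′ end in nt, with 1 line per replicate. Peak number falls from a mean of 1386.5 to 461.5 across the kilobase while mean log2 fold rises from −0.135 to 0.292.

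Enriched peaks, defined as those with log2 fold of at least 3 and −log10 p of at least 3, numbered 45, 46, 36 and 37 among the members of replicates 1 to 4. This was 0.591%, 0.612%, 0.479% and 0.490% of members, against 0.861%, 0.848%, 0.789% and 0.775% of all called peaks. Few of them lay near the start. Over the 4 replicates together, 11 of 10353 peaks in the first 200 nt were enriched, then 29 of 6548, 42 of 4956, 41 of 4447 and 41 of 3903 in the following steps. The per-replicate share was 0.106 ± 0.019% in the first of these steps and 1.054 ± 0.247% in the last. Between 0 and 500 nt it was 0.293 ± 0.055%, and beyond 500 nt it was 0.996 ± 0.100%; the 4 replicates did not overlap between those parts. Peaks of 1 transcript often abut, so they are not independent of each other.

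Compared with the rest of the same class of genes, the first kilobase had a lower share of enriched peaks. The rest of the gene had 0.824%, 0.824%, 0.778% and 0.746%, and the difference was −0.250 ± 0.0373 percentage points, negative in 4 of 4 replicates (exact sign-flip p = 0.13). This comparison changes with the genes that enter it. In genes with called peaks in both places, on average 3883.5 per replicate, the share was 0.549 ± 0.0691% in the first kilobase and 0.559 ± 0.0394% in the rest. The difference there was −0.00956 ± 0.0598, negative in 3 of 4 replicates (exact sign-flip p = 0.75). Genes with no called peak in the first kilobase had 1.21 ± 0.0690% in the rest. The second kilobase had 0.899%, 0.711%, 0.714% and 0.906% and the last kilobase 0.248%, 0.431%, 0.241% and 0.392%. The first kilobase was above the last by 0.215 ± 0.103 points in 4 of 4 replicates (exact sign-flip p = 0.13), but this did not hold in all settings. With windows of 500 nt at both ends the difference was −0.0312 ± 0.111, and with spans of any length 0.0262 ± 0.0667, each negative in 2 of 4 replicates.

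**Figure D2:**
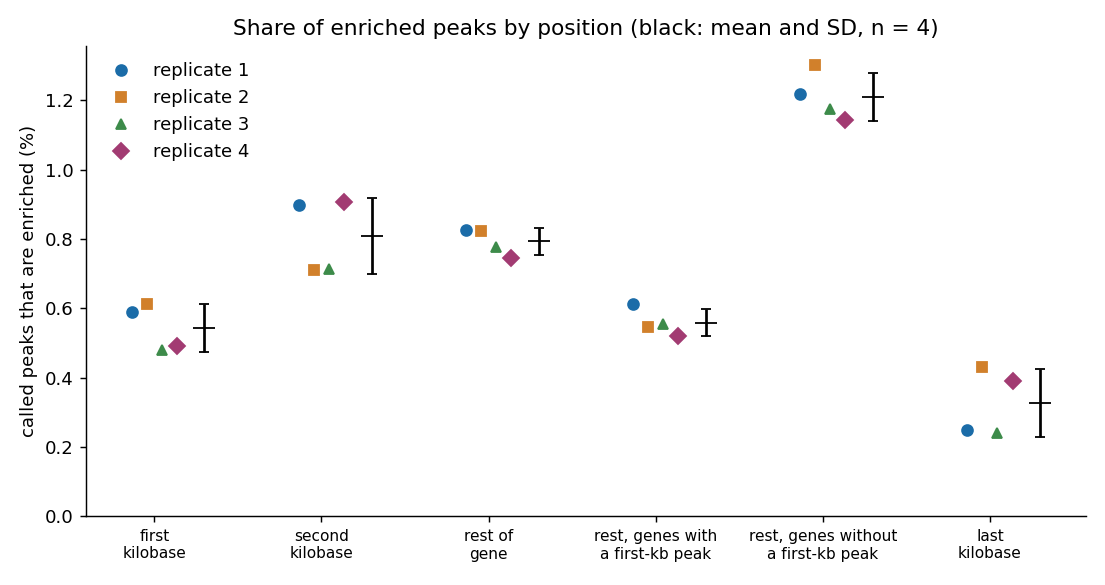
Percentage of called peaks that were enriched, by position in the gene, with 1 symbol per replicate and the mean and SD (n = 4) in black. The first kilobase (mean 0.543%) lies below the rest of all genes (0.793%) but near the rest of genes that have a first-kilobase peak (0.559%).

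The mean log2 fold of all members was 0.140, 0.118, −0.0153 and 0.0600, with a difference from the rest of the gene of −0.0993 ± 0.0466 that was negative in 4 of 4 replicates (exact sign-flip p = 0.13). In genes with peaks in both places the difference was −0.0529 ± 0.0477, again negative in 4 of 4. The shift was in the lower part of the distribution. Peaks below a log2 fold of −0.5 made up 29.2% of members and 23.1% of the rest, a difference of 6.19 ± 1.74 points in 4 of 4 replicates. Peaks above 0.5 made up 31.4% and 31.1%, and that difference, 0.250 ± 1.34 points, was within the spread between replicates. Against the last kilobase neither the lower mean nor the excess below −0.5 was seen. The difference in peaks below −0.5 was 0.220 ± 1.49 points, positive in 2 of 4 replicates. The difference in mean log2 fold was 0.0101 ± 0.0446, positive in 3 of 4. These measures thus did not set the first kilobase apart from the last. Members were longer than peaks of the rest, with a median of 55.5 against 48.25 nt.

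To ask which places departed from the input in all replicates, overlapping called peaks were merged and the 49493 regions with a peak in each replicate were tested with limma against a log2 fold of 0, with Benjamini-Hochberg adjustment over all of them. The first kilobase held 2282 of these regions in 1795 genes. At an adjusted p of 0.05, 261 were higher (11.4%) and 29 lower (1.27%), against a background of 21.1% higher and 1.81% lower over all regions. The median of the mean log2 fold was 0.15 in the first kilobase and 0.50 over all regions. The last kilobase was also under the background for higher regions, with 116 of 801 (14.5%), 18 lower (2.25%) and a median of 0.40. The second kilobase had 24.1% higher, 1.05% lower and a median of 0.73. The counts of the first kilobase lean on having 4 libraries. Without replicate 1, 2, 3 or 4, 59, 93, 99 or 83 regions were called higher and 7, 5, 3 or 7 lower.

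The calls followed distance. In steps of 200 nt, 38 of 1061, 58 of 474, 56 of 284, 57 of 270 and 52 of 193 regions were higher, or 3.58%, 12.2%, 19.7%, 21.1% and 26.9%. The last 2 steps were thus near the background or above it, and the first was far below. Lower regions after adjustment numbered 17, 6, 5, 1 and 0, or 1.60%, 1.27%, 1.76%, 0.37% and 0%. Each share was under the background of 1.81%. At an unadjusted limma p under 0.05, lower regions numbered 57, 24, 7, 5 and 5 in the same steps, a smaller share beyond 400 nt than within it. The adjusted calls are too few to show how the share changes over the first 600 nt. The median of the mean log2 fold was −0.06, 0.24, 0.42, 0.65 and 0.73.

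**Figure D3:**
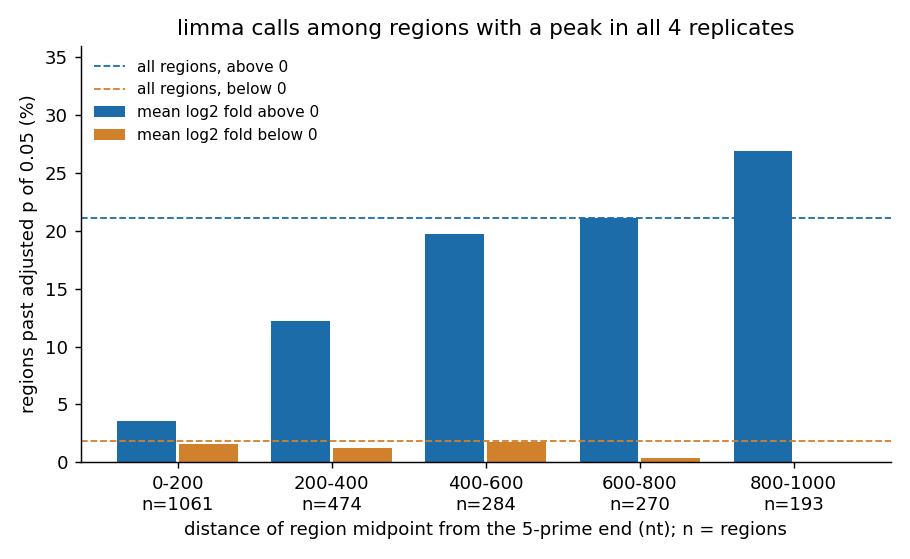
Percentage of regions called in all 4 replicates that passed a limma adjusted p of 0.05 above (blue) or below (orange) a log2 fold of 0, by distance from the 5′ end in nt, with dashed lines for all 49493 regions. Calls above 0 rise from 3.58% to 26.9%, reaching the level of all regions (21.1%) in the last 2 steps.

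Replicates ranked the start of the gene less alike than its later parts. The Spearman correlation of log2 folds across regions, averaged over the 6 replicate pairs, was 0.336 in the first kilobase (0.310 to 0.369), 0.252 within 500 nt, 0.168 within 200 nt and 0.457 beyond 500 nt. It was 0.452 in the rest of the gene. The spread of a region over the replicates differed little, with a median SD of 0.838 within 200 nt, 0.868 beyond 500 nt and 0.837 in the rest. These are descriptions across regions of the same libraries, and read depth behind each region is not known. Of the enriched members, 56.3%, 55.1%, 51.9% and 58.6% overlapped an enriched peak of another given replicate, averaged over the other replicates. In the rest of the gene this was 66.1 ± 2.28%, and the difference was −10.6 ± 1.88 points in 4 of 4 replicates (exact sign-flip p = 0.13). The size depended on the setting: it was −6.01 without replicate 3, −5.30 at 50% mutual overlap, −24.6 when the fold limit was raised to 4 on the log2 scale, and −2.75 ± 3.42 when it was lowered to 1, where 3 of 4 replicates were negative. A called partner of any fold was found for 97.8 ± 0.710% and 97.2 ± 0.637%, so the partner peaks were present and differed in fold or p.

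Enrichment in every replicate was found in 6 genes. Enriched peaks of the first kilobase merged into 75 regions in 43 genes, of which 40 were found in 1 replicate, 17 in 2, 7 in 3 and 11 in all 4. The 11 are 14.7% of the 75, against 16.4% of all merged enriched regions. They lay in 6 genes: DGCR8 with 4, ADI1 and ZSWIM9 with 2 each, and ERI3, ANKRD17 and HIVEP2 with 1 each. These genes held 23 of 45, 25 of 46, 18 of 36 and 22 of 37 enriched members (53.7 ± 4.24%). They were picked for such peaks, so a high share follows in part from the choice. In the rest of the gene, 1903 merged enriched regions lay in 614 genes. Whether enrichment is more concentrated at the start was not tested. The 7 regions found in 3 replicates were in DGCR8, TRAP1, SERGEF, C1orf159, TFG, ADI1 and CNOT9. When called peaks of any fold were merged instead, giving wider regions, 12 were enriched in all 4 (1.13% of all 49493 were), the added one being in QSER1. The regions described from here on are of this wider kind, and their counts of enriched replicates can be higher than in the first merging.

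DGCR8 encodes the RNA-binding partner of DROSHA in the Microprocessor, which cuts primary microRNAs. Its span, chr22:20080241-20111872 on the plus strand, held 14, 13, 11 and 11 called peaks in the first kilobase, of which 10, 10, 6 and 7 were enriched. The region 276 nt from the start, chr22:20080402-20080633, had log2 folds of 3.02, 3.85, 4.28 and 3.74 (3.72 ± 0.52, SD, n = 4). The region at 543 nt, chr22:20080682-20080887, had 5.32, 4.52, 3.50 and 4.00 (4.34 ± 0.78). The region at 731 nt, chr22:20080906-20081038, had 4.00, 4.03, 4.64 and 3.19 (3.96 ± 0.60). All 12 values were at or above 3.02, which follows largely from picking regions enriched in all 4 replicates. No replicate was lowest in every region. The region at 983 nt, chr22:20081141-20081308, had 4.47, 5.00, 3.96 and 5.26 (4.67 ± 0.58, limma adjusted p = 0.00411) and the highest −log10 p of the 4, from 20.2 to 32.7. Enrichment in this gene went on past the kilobase: 19 further enriched regions lay elsewhere in the span, 9 of them in all 4 replicates.

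ADI1 encodes the acireductone dioxygenase of the methionine salvage pathway. Its region at 375 nt, chr2:3519062-3519250 on the minus strand, had log2 folds of 5.73, 4.56, 3.27 and 5.25 (4.70 ± 1.07). The neighbouring region at 564 nt, chr2:3518873-3519061, had 4.00, 5.65, 3.46 and 5.28 (4.60 ± 1.04, limma adjusted p = 0.00563). Replicate 3 was the lowest in both. The gene had 4 enriched regions in its first kilobase and 0 elsewhere in a span of 22.2 kb.

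ZSWIM9, a SWIM-type zinc finger protein, had its strand listed in none of the tables used here, and its peaks were on the plus strand. The region at 519 nt, chr19:48170940-48171459, had 5.46, 5.36, 4.09 and 5.39 (5.07 ± 0.66, limma adjusted p = 0.00411), replicate 3 standing below the other replicates. The region at 180 nt, chr19:48170815-48170905, had 4.32, 3.46, 3.46 and 4.39 (3.91 ± 0.52). It too had no enriched region outside the first kilobase.

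ERI3, a member of the ERI exoribonuclease family, had 4.81, 4.37, 4.21 and 4.64 in the region at 345 nt, chr1:44354777-44355092 on the minus strand (4.51 ± 0.27, limma adjusted p = 0.00408). ANKRD17, an ankyrin repeat protein, had 4.04, 3.46, 3.59 and 3.32 at 942 nt, chr4:73257718-73257995 on the minus strand (3.60 ± 0.31). HIVEP2, a zinc finger transcription factor, had 4.91, 3.12, 3.25 and 4.21 at 977 nt, chr6:142944687-142944825 on the minus strand (3.87 ± 0.84, limma adjusted p = 0.00580). QSER1, a glutamine- and serine-rich protein, had 2.74, 3.17, 4.09 and 3.81 at 971 nt, chr11:32893650-32893914 on the plus strand (3.45 ± 0.61). In replicate 1 of QSER1 a second, less significant peak of 3.09 made the region enriched. HIVEP2, like ADI1 and ZSWIM9, had 0 enriched regions elsewhere in the gene, while ERI3 and ANKRD17 had 2 each.

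**Figure D4:**
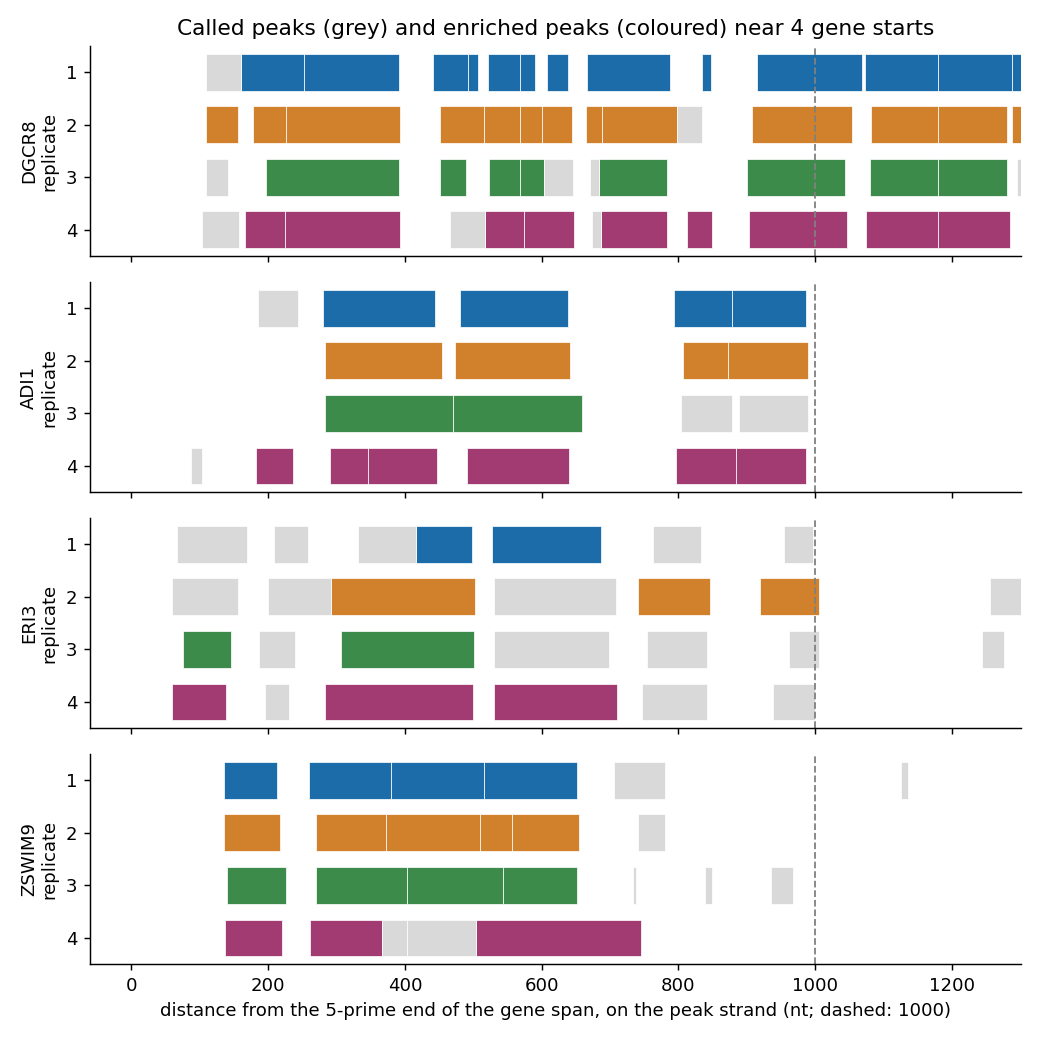
Called peaks (grey) and enriched peaks (coloured) of replicates 1 to 4 over the first kilobase of DGCR8, ADI1, ERI3 and ZSWIM9, against distance from the 5′ end in nt on the peak strand, with the limit of 1000 nt dashed. Enriched peaks of DGCR8 continue past the limit, those of ADI1 end before it, and ERI3 has 1 stretch that is coloured in all 4 replicates among others that are not.

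The next 8 regions by their lowest fold were called higher by limma but were not enriched in every replicate. SERGEF, a guanine nucleotide exchange factor homologue, had 4.09, 4.59, 3.88 and 3.0 at 694 nt. QTGAL, the galactosyltransferase of queuosine tRNA, had 4.58, 4.52, 3.09 and 3.0 at 707 nt. TFG, which acts at endoplasmic reticulum exit sites, had 3.37, 3.22, 2.88 and 3.91 at 784 nt. These passed both limits in 3 replicates, as did ZNF503 with 3.22, 2.76, 3.88 and 3.39 at 978 nt. ELP2, a subunit of the tRNA-modifying Elongator complex, had 3.46, 3.46, 2.91 and 3.58 at 766 nt, and MLF1 had 3.46, 3.46, 3.59 and 2.91 at 282 nt. Both were enriched in 0 replicates, since their −log10 p ran only from 2.20 to 2.88. TRERF1, at 753 nt, and KLHDC4, at 589 nt, were enriched in 1 replicate each.

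Of the 29 regions below the input, 25 lay within 500 nt, as did 1689 of the 2282 regions tested. This is 1.48% within 500 nt and 0.67% beyond, both under the 1.81% of all regions. The 5 with the lowest highest value were less stable calls than the higher regions named above. Those higher regions were picked for a high lowest fold, so their stability follows in part from the choice. Over all calls, leaving out a replicate took higher regions from 261 to between 59 and 99. It took lower ones from 29 to between 3 and 7, so most calls were lost on both sides. EBPL and TSG101 missed the threshold when any 1 replicate was left out, PANK3 and COL25A1 in 3 of the 4 cases, and NRDE2 in 0. All 5 had a −log10 p of 0 in every replicate, as every peak below a fold of 0 has in these lists. NRDE2, a nuclear protein that binds the RNA helicase MTR4, had −1.59, −1.58, −1.58 and −1.59 at 56 nt, chr14:90331841-90331930 (limma adjusted p = 0.0101). PANK3, a pantothenate kinase of coenzyme A synthesis, had −1.0, −1.58, −2.32 and −2.0 at 69 nt. TSG101, of the ESCRT-I complex, had −1.0, −1.32, −2.0 and −1.0 at 104 nt. The same few values recur between genes and replicates, as ratios of small whole numbers would give, and the counts behind them are not known. EBPL averaged −1.79 ± 0.67 at 119 nt, and COL25A1, a collagen, −1.81 ± 0.64 at 619 nt.

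**Figure D5:**
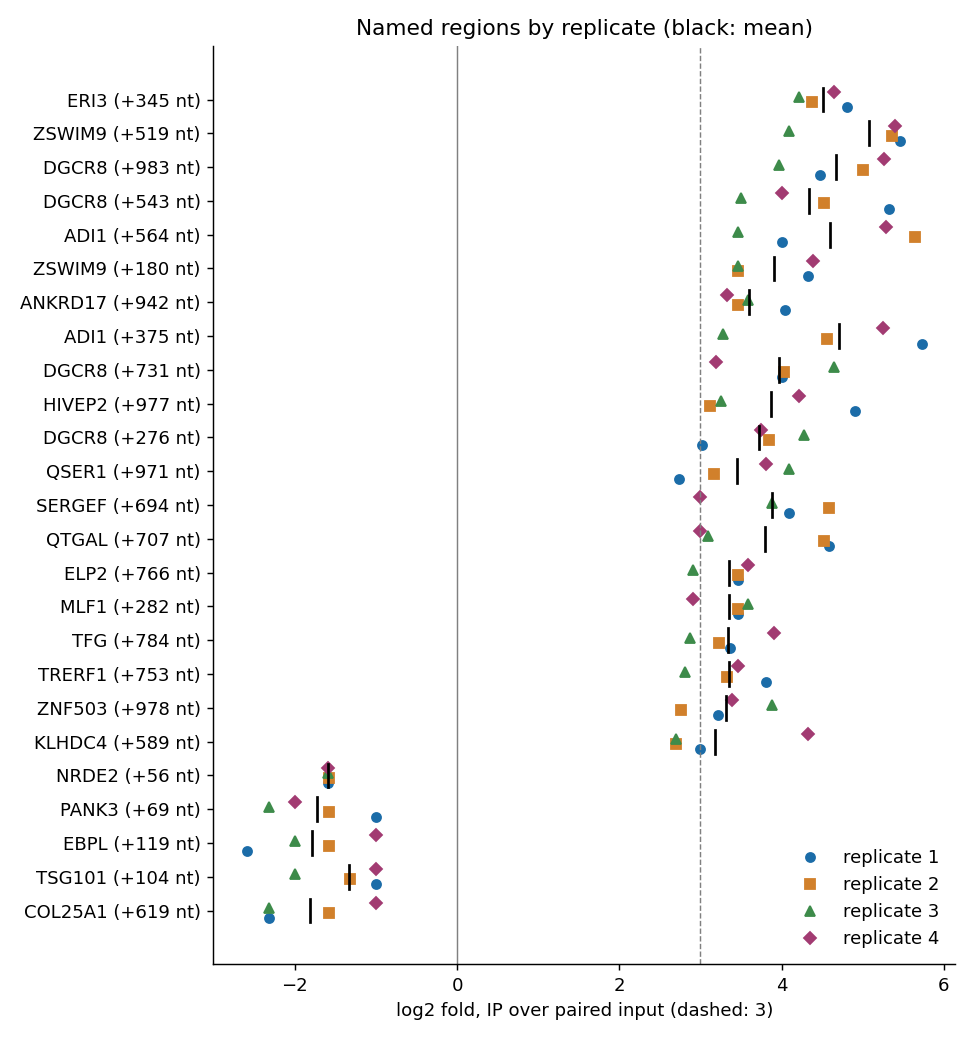
Log2 fold of IP over paired input for the 20 named higher and 5 named lower regions, with 1 symbol per replicate, a black bar at the mean and the distance from the 5′ end in the label. The 5 lower regions lie at or below −1.0 in all replicates, having been picked for a low highest value. Of them, 4 are within 119 nt of the start, and 1061 of all 2282 regions tested lay within 200 nt.

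Of 173 qualifying entries in 5 gene lists (1 gene stands in 2 lists), 1 had an enriched member (0.578%), against 43 of all 10297 qualifying genes (0.418%). A member peak of any fold was present in 5125 of these 10297 genes. Whether the lists differ from that share was not tested. Of 10 listed RBFOX2 targets, 6 had a member peak, 0 had an enriched one, and limma called 0 of their 5 regions (0 also at an unadjusted p under 0.05; median log2 fold 0.32). Of 38 qualifying splicing regulators, 25 had a member peak and 0 an enriched one, and 2 of 28 regions were higher, in HNRNPM (0.95, 1.84, 1.32 and 1.61; limma adjusted p = 0.0203) and RBM5 (2.32, 2.7, 0.68 and 1.17; limma adjusted p = 0.0437). Cytoskeletal genes had 33 of 40 with a member peak, 0 enriched, and limma called 0 of 16 regions, with 1 higher and 1 lower at an unadjusted p under 0.05. Chromatin genes had 40 of 52 with a member peak. BPTF, a subunit of the NURF remodeller, had the only enriched one, in replicate 2 (log2 fold 3.27 at 713 nt), and KDM4A, a histone lysine demethylase, was the only region of 38 called higher (1.14, 1.0, 3.0 and 2.17). Ubiquitin ligases had 30 of 33 with a member peak, 0 enriched, and 1 of 18 regions higher, in FBXW11 at 950 nt (1.81, 3.17, 3.0 and 2.58; limma adjusted p = 0.00787). Over all genes, 261 of 2282 regions were higher with a median log2 fold of 0.15. At an unadjusted limma p under 0.05, 428 of the 2282 were higher and 98 lower. By the same limit, splicing regulators had 5 higher and 2 lower of 28, chromatin genes 8 and 1 of 38, and ubiquitin ligases 2 and 0 of 18. The lists had medians of 0.18 (splicing), 0.13 (cytoskeleton), 0.45 (chromatin) and 0.50 (ubiquitin ligases). HNRNPM, RBM5, BPTF, KDM4A and FBXW11 were named after their values were seen.

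The motif could be read under the few members that lay wholly inside a RefSeq start window, 2216 of 30207 (7.34%). Each window ran from 250 nt before to 50 nt after a listed start. At the span end only peaks ending within 50 nt of it could be read, and other readable members lay near further listed starts. The readable members therefore do not stand for the whole kilobase. GCATG was searched on the strand of the peak. Members with it numbered 13 to 19 per replicate and had a mean log2 fold of 0.0447 ± 0.0944 (SD, n = 4). Members without it had −0.0878 ± 0.0475, and 0 of 66 against 4 of 2150 were enriched. Among all other called peaks inside such windows, those with GCATG (90 to 119 per replicate) had 0.766 ± 0.0805 and those without 0.178 ± 0.0362, and 19 of 404 against 26 of 6586 were enriched. Peaks with the motif were longer in both sets, with medians, averaged over replicates, of 77.25 against 47.25 nt in the first kilobase and 69.1 against 45.75 nt elsewhere. The part of length was not tested, and the search was chosen after the data were seen. GCATG was in the first 50 nt of 2.76% of 6998 qualifying genes whose span end is a listed start, of 2.74% of the 3902 with a member peak and of 2.78% of the 3096 without, against 3.51% of all 35116 windows. Windows of genes with a member peak were richer in G and C, at 68.2% against 61.5%.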

How the data were processed

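Per the labels' protocols, eCLIP was made from UV-crosslinked HEK293T cells with a paired input for each IP. The authors deposited 1 peak list per IP and input pair on hg38 (GRCh38.p13), with UMI-tools 1.1.1, cutadapt 3.2 and STAR 2.7.7a named in the submitters' processing notes. The peak caller, its test and its scaling are not given in the sources used here. The deposited lists have no header, so the units were read from their values: a −log10 p from 0 to 400, and a log2 fold of IP over input. They hold no counts, so read depth and counting error are not known.

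Gene spans came from a RefSeq table (GRCh38.p14; the chromosomes keep their coordinates between patches). Members and gene lists were chosen with earlier results of these data known. Enrichment was set at a log2 fold and −log10 p of at least 3, a customary eCLIP limit that the labels do not state. Shares, means and densities were compared within replicates by exact two-sided sign-flip tests. Called peaks overlapping by at least 1 nt on a strand were merged, and regions called in all 4 replicates entered limma 3.58.1 (R 4.3.3; intercept-only fit, eBayes), each with the fold of its most significant peak. On simulated data of 49493 regions, 10000 were given a mean log2 fold of 2 to 5 and the rest 0. Of the 10000, 92.8% were recovered, and 4.4% of calls were false. Changes below 2 and negative changes were not simulated. The simulated noise was normal, with the spreads of real regions in shuffled order, whereas real folds often repeat the same few values. In the first kilobase the median log2 fold of real calls was 1.98 for higher regions and −1.31 for lower ones. The simulated figures therefore do not cover many of the real calls. Named regions were the 20 with the highest lowest-of-4 fold, first among those enriched in all 4 and then among those called higher; the 5 called lower with the lowest highest-of-4 fold; and any region of a listed gene enriched in at least 3 replicates, of which there was none. Alternatives changed the limits, window, gene length, strand, overlap and replicates.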

Additional observations from a re-analysis of the deposited data

Results flagged for a closer look

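In 1 of 32 sets of 4 replicate values, a replicate stood apart from the others. In the ZSWIM9 region at chr19:48170940-48171459, replicate 3 had a log2 fold of 4.09 against 5.36 to 5.46 in the other replicates. The gap was 0.927 of the whole range, above Dixon's 95% critical value for 4 values. Chance alone gives such a gap in about 1 of 20 sets.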

How the results depend on the processing

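Taking only distances over 500 nt, chosen after the data were seen, turned the difference from the rest of the gene to 0.203 percentage points in enriched share and to 0.0846 in mean log2 fold. Medians in place of means gave 0. Windows of 500 nt turned the difference from the last kilobase to −0.0312 points, and any called partner turned the sharing difference to 0.537 points. Spans of any length took the difference from the last kilobase to 0.0262 points. Regions enriched in all 4 replicates (11) numbered 23 at a log2 fold of at least 1, 2 at 4, 4 within 500 nt and 20 with spans of any length. Regions called higher by limma (261) numbered 55 when tested against a log2 fold of 1, 121 within 500 nt and 421 within 2000 nt, and regions called lower (29) numbered 0 by limma against a log2 fold of 1. Leaving out a replicate gave 59 to 99 regions higher, 3 to 7 lower and 11 to 14 enriched in all remaining ones. It gave differences of −0.263 to −0.234 points from the rest, 0.172 to 0.254 from the last kilobase, −0.114 to −0.0799 in mean log2 fold, 1.05 to 1.09 in log2 density and −14.4 to −6.01 points in sharing; with 3 replicates the smallest p is 0.25. Of 175 values of the 25 named regions, 155 kept their side of the threshold, 20 lost it and 0 changed sign; 19 of the losses were among the 35 values of the 5 lower regions and 1 among the 140 of the higher ones. No paired analysis was possible because IP and input are given only as their ratio, which is already paired, so no replicate block could be added; positions were compared within each replicate throughout. Depth is not known, so a low fold near the start cannot be told apart from few reads.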
